A study of Drosophila melanogaster with 8 samples.

Results

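Non-LTR retrotransposons, among them the elements that form fly telomeres, were followed in RNA from exosomes released by Drosophila melanogaster S2 cells and in RNA from the cells. The members were chosen by element name from the deposited transposon table, and 34 of its 179 elements qualified, 5 of them telomeric (HeT-A, TAHRE, TART-A, TART-B and TART-C). Of all 179, 53 carry the name of another Drosophila species and none of these is a member, and G5A and Doc4-element fell outside the names taken. Polyadenylated RNA was sequenced from 4 exosome libraries and 4 cell libraries, numbered 1 to 4 in each group, and no drug, genotype or time point separates them. S2 is an embryonic line that resembles macrophage-like blood cells. The labels do not say if separate cultures gave the libraries, so a p-value here reflects only how these libraries vary, and that variation may be technical. Of 8 plasmatocyte markers, 7 were above an FPKM of 1 in at least 2 cell libraries, as were 1 of 4 germ line, 0 of 2 ovarian somatic, 1 of 3 neuronal, 0 of 2 muscle and 0 of 2 fat body markers.

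Non-LTR retrotransposons copy themselves through an RNA that is reverse transcribed at the place of insertion, so a transcript is also the template for a new copy. They lack the long terminal repeats of elements such as copia. In Drosophila, which has no telomerase, HeT-A, TART and TAHRE insert at chromosome ends and maintain them. R1 and R2 insert at fixed places in the genes for 28S ribosomal RNA, and most of the others are scattered through the genome. In somatic cells such as S2 their transcripts are mainly held down by the siRNA pathway.

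The transposon table rested on very few sequenced fragments. Values are FPKM (fragments normalized to element length and library size). In 6 libraries each value was a whole number of fragments, to within 0.01 of a fragment, once an effective length was used. The transposon fragments numbered 191, 658 and 2756 in exosome replicates 2 to 4, against 1147, 76 and 276 in cell replicates 2 to 4. A single fragment of the F-element was therefore worth 79.1 FPKM in exosome replicate 4 and 3119 FPKM in cell replicate 3. These 6 libraries were each scaled to their own transposon fragments, so their values give the makeup of transposon RNA and not its amount beside other RNA. The replicates numbered 1 were on another scale, no such steps were found in them and their depth is unknown. Cell replicate 1 stands apart, since an element named for another species, Dvir\Helena, was listed there at 14734279 FPKM, 96.2% of the summed value, and copia at 6.8e-05. Most shares and tests of elements below that use these 2 libraries are also given without them where the element could still be tested.

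In the 6 libraries with fragment counts, non-LTR elements made up a smaller part of transposon RNA in exosomes than in cells. Copia made up a larger part in exosomes. The 34 elements held 15, 31 and 66 fragments in exosome replicates 2 to 4, and 199, 16 and 70 in cell replicates 2 to 4. As a share of transposon fragments this was 7.85% (exact 95% binomial interval 4.46 to 12.6), 4.71% (3.22 to 6.62) and 2.39% (1.86 to 3.04) in the exosome libraries. In the cell libraries it was 17.3% (15.2 to 19.7), 21.1% (12.5 to 31.9) and 25.4% (20.3 to 30.9). No exosome value reached a cell value. The other D. melanogaster elements apart from copia were lower in exosomes too, at 53.4%, 24.5% and 7.51% against 58.7%, 67.1% and 67.8%, with no overlap. These intervals cover counting error only, and no test was made of a sum over chosen elements.

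**Figure D1:**
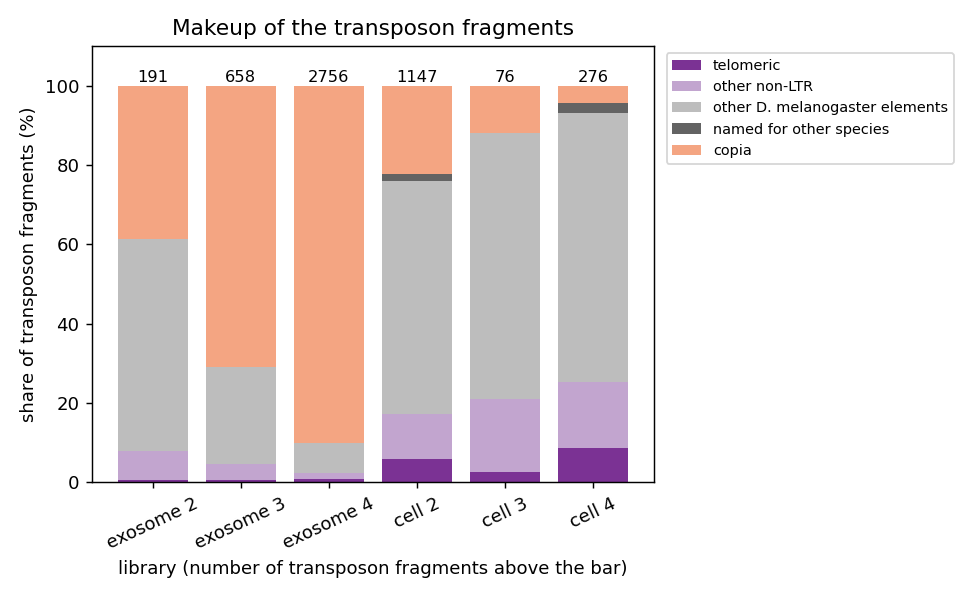
Share of transposon fragments (vertical axis, %) held by telomeric, other non-LTR, other D. melanogaster elements, elements named for other species and copia in the 6 libraries with fragment counts, with the number of fragments above each bar. Non-LTR elements, in the purple shades, hold 2.39% to 7.85% in exosomes and 17.3% to 25.4% in cells, and copia holds 38.7% to 89.9% in exosomes and 4.35% to 22.2% in cells.

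The separation was not kept among fragments of elements other than copia. Copia, an LTR retrotransposon, took 38.7%, 70.8% and 89.9% of the fragments in exosome replicates 2 to 4, against 22.2%, 11.8% and 4.35% in cell replicates 2 to 4. With copia set aside, the non-LTR share was 12.8%, 16.1% and 23.8% in exosomes against 22.3%, 23.9% and 26.5% in cells. Exosome replicate 4 then lay inside the cell range, while exosome replicates 2 and 3 lay below it. Since the values add up to a fixed total, a lower amount of these RNAs and a higher amount of copia cannot be told apart. In these bulk libraries, fewer vesicles carrying an RNA and less of it per vesicle cannot be told apart either.

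**Figure D2:**
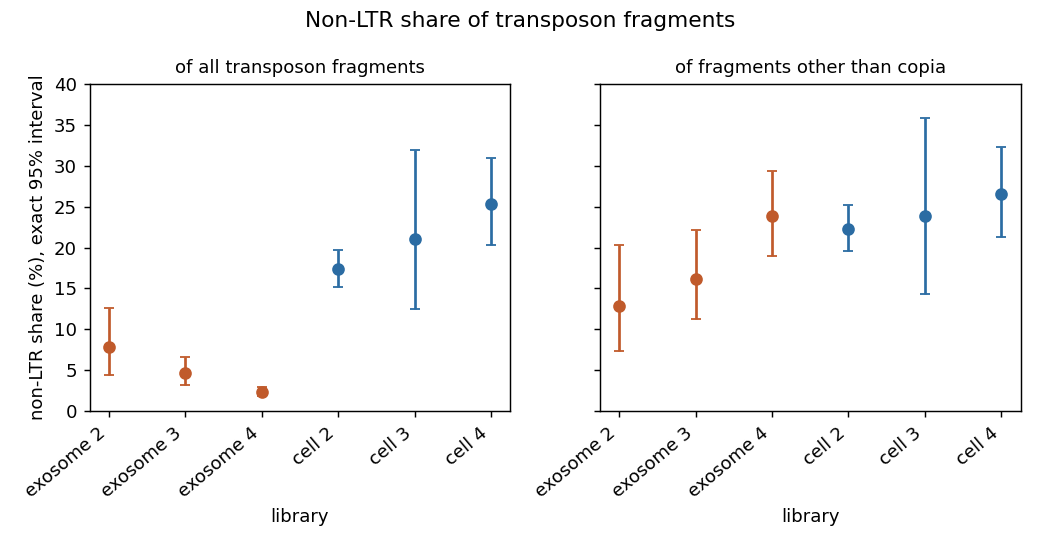
Non-LTR share (vertical axis, %) of all transposon fragments (left) and of fragments other than copia (right) in 6 libraries, exosomes in orange and cells in blue, with exact 95% binomial intervals as bars. The groups are apart on the left, from 2.39% to 7.85% against 17.3% to 25.4%, and overlap on the right, from 12.8% to 23.8% against 22.3% to 26.5%.

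The summed FPKM, which exists for all 8 libraries, depended on cell replicate 1. The non-LTR share of the summed FPKM was 11.6%, 9.07%, 4.93% and 2.12% in exosome replicates 1 to 4 (6.92% ± 4.21, SD, n = 4). It was 1.74%, 16.8%, 24.3% and 26.5% in cell replicates 1 to 4 (17.3% ± 11.2, SD, n = 4). Cell replicate 1 thus lay below every exosome library here. Without the libraries numbered 1 the means were 5.37% and 22.5%. With copia left out of the total, all 8 libraries gave 17.8% ± 3.13 in exosomes and 19.8% ± 12.4 in cells (SD, n = 4 each). This cell mean includes cell replicate 1, still at 1.74%. When the libraries numbered 1 were dropped as well, exosome shares ran from 15.8% to 21.4% and cell shares from 21.8% to 27.9%. On the FPKM scale these 6 libraries thus stayed apart by a narrow gap, whereas their fragment shares without copia overlapped. When only elements named for other species were left out of the total, the share in cell replicate 1 was 54.2%, the highest of all 8. The other 7 libraries moved by less than 1 percentage point. Copia held 20.6%, 42.7%, 74.6% and 90.1% of the summed FPKM in exosome replicates 1 to 4. In cell replicates 1 to 4 it held 4.44e-10%, 22.9%, 12.6% and 5.03%, so exosome replicate 1 lay below cell replicate 2.

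Only a few of the 34 elements were listed in every library. F-element, Doc and R1A1-element were above 0 in all 8, and BS4 and G7 were at 0 in all 8. Elements under 2000 bases, BS3, BS4, G7 and Helena, had 2 fragments in the 6 libraries together, both of BS3. The 17 elements of 4500 to 6500 bases had a median of 9 fragments, and the 4 over 10000 bases, TAHRE and the TARTs, a median of 26.5. A longer element yields more fragments at the same FPKM, so a 0 for a short element says less. In exosome replicate 2, the 15 member fragments came from 8 elements, 4 of which had a single fragment. In cell replicate 3, the 16 came from 7 elements, 4 with a single fragment.

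**Figure D3:**
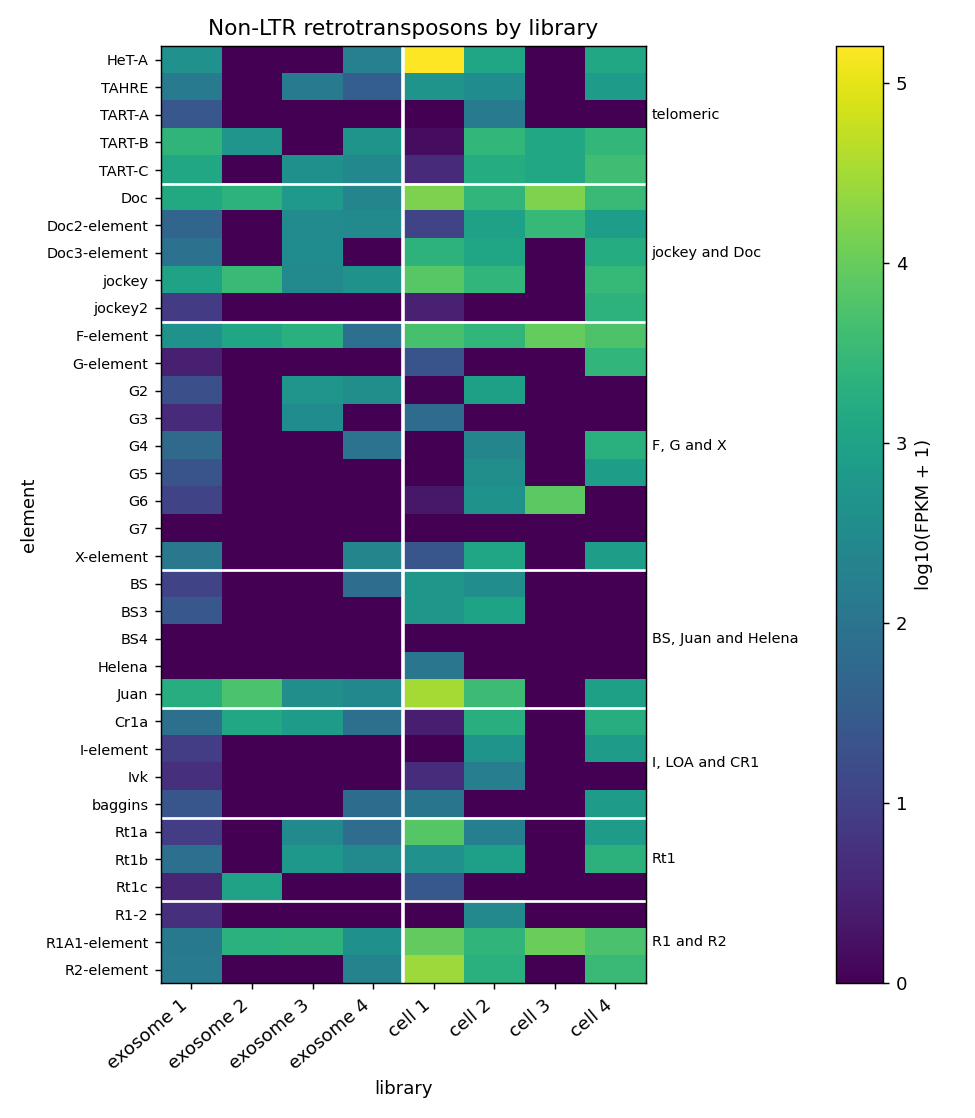
Heat map of log10(FPKM + 1) for the 34 elements (rows, grouped by family) in 8 libraries (columns, exosomes left of the white line). F-element, Doc and R1A1-element are above 0 in all 8 libraries, HeT-A in cell replicate 1 is the brightest cell at 159813 FPKM, and dark cells mark elements listed at or near 0.

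Telomeric elements were read mostly as TART. HeT-A encodes a Gag protein that brings the RNA to chromosome ends and has no reverse transcriptase of its own, while TART and TAHRE encode both. The 5 elements held 1, 4 and 26 fragments in exosome replicates 2 to 4, against 68, 2 and 24 in cell replicates 2 to 4. Of these, 1, 3 and 22 were TART in the exosomes and 56, 2 and 20 in the cells. As a share of all transposon fragments the telomeric elements took up 0.524%, 0.608% and 0.943% of the exosome libraries, against 5.93%, 2.63% and 8.70% in cells, with no overlap between the groups. Among fragments other than copia they held 0.855%, 2.08% and 9.39% against 7.62%, 2.99% and 9.09%, and exosome replicate 4 was then the highest of the 6 libraries. As a share of the summed FPKM in all 8 libraries they held 1.54% ± 2.38 in exosomes and 2.61% ± 1.82 in cells (SD, n = 4 each), a difference of -1.07 percentage points. That difference was -2.78 without the libraries numbered 1 and turned to 0.29 with copia left out of the total.

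TART-B was listed at 2573, 509, 0 and 482 FPKM in exosome replicates 1 to 4, against 0.470, 2739, 1345 and 2830.1 in cell replicates 1 to 4. Exosome replicate 1 came close to the higher cell libraries, and cell replicate 1 was near 0. The fragments behind the values were 1, 0 and 14 in exosome replicates 2 to 4, against 33, 1 and 8 in the cells. TART-C was listed at 1242, 0, 415 and 264 FPKM in exosome RNA, against 3.17, 1669, 1287 and 4062 in cells. Apart from cell replicate 1, all its cell values were above all its exosome values. The lowest of these cell values, 1287 in cell replicate 3, was 1 fragment. The highest exosome value, 1242, was in exosome replicate 1, which is on another scale. TART-A had 24.9, 0, 0 and 0 FPKM in exosome RNA, against 0.0408, 131, 0 and 0 in cells, and did not pass the filter for testing. The TART types are related in sequence, and the sources used here do not say how the authors' counting shared reads between them, so their separate levels are uncertain. The element named Dyak\TART, after another species and outside the members, had 4 fragments in exosome replicate 4, 11 in cell replicate 2 and 6 in cell replicate 4.

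HeT-A was listed at 435, 0, 0 and 183 FPKM in exosome replicates 1 to 4, against 159813, 1175, 0 and 1259 in the cell replicates. Cell replicate 1 was far above all others, and cell replicate 3 was at 0 like exosome replicates 2 and 3. In cell replicate 1, HeT-A made 99.7% of the telomeric FPKM and TART 0.00230%, whereas in cell replicates 2 and 4 TART made 75.0% and 77.7% and HeT-A 19.4% and 14.2%. HeT-A fragments numbered 0, 0 and 3 in exosome replicates 2 to 4, against 8, 0 and 2 in cell replicates 2 to 4. At 76 transposon fragments in all, a count of 0 in cell replicate 3 allows a share of up to 3.95%, counting error only. TAHRE, which resembles HeT-A at its ends and Gag and TART in its polymerase, had 142, 0, 147 and 35.1 FPKM in exosome RNA, against 485, 338, 0 and 721 in cells. Other than cell replicate 3, the cell values of TAHRE were above all its exosome values. Its fragments were 0, 1 and 1 in exosome replicates 2 to 4, against 4, 0 and 2 in cell replicates 2 to 4.

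**Figure D4:**
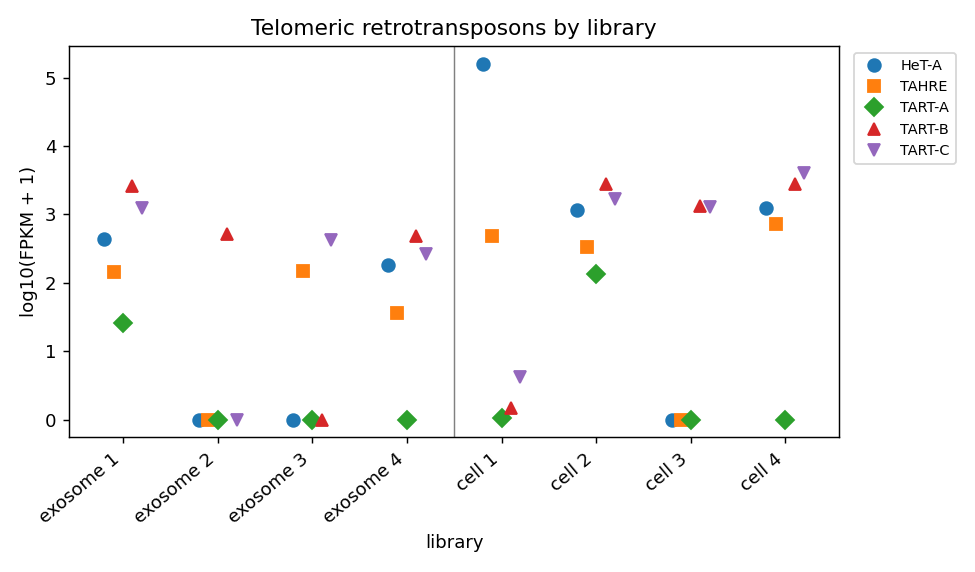
log10(FPKM + 1) of the 5 telomeric elements (symbols) in 8 libraries, exosomes left of the line. A TART element leads in 7 libraries, whereas in cell replicate 1 HeT-A stands at 159813 FPKM with TART-B at 0.470 and TART-C at 3.17.

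In the jockey and Doc group, Doc was lower in every exosome library than in every cell library. Jockey and Doc are related elements that encode a nucleic acid binding Gag-like protein and a reverse transcriptase. Doc had 1433, 2346, 663 and 236 FPKM in exosome replicates 1 to 4, against 15007, 2667, 15536 and 3276 in the cell replicates. The gap between the highest exosome and the lowest cell value was small, and these were 2 and 14 fragments (exosome and cell replicate 2). Jockey had 1013, 3304, 312 and 444 FPKM in exosome RNA, against 6951, 2685, 0 and 3075 in cells, and its groups overlapped, with cell replicate 3 the lowest of all 8. Doc2-element had 0 to 327 FPKM in exosome RNA, against 10.5 to 3064 in cells, and Doc3-element 0 to 331 and 0 to 2366. The element jockey2 was above 10 FPKM only in cell replicate 4, with 2299 FPKM from 2 fragments.

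Among the F, G and X elements, only the F-element was found throughout. It had 466, 1177, 1997 and 79.1 FPKM in exosome replicates 1 to 4, against 4860.3, 2677, 9357 and 5754 in the cell replicates, and every exosome value was below every cell value. Its fragments were 1, 6 and 1 in exosome replicates 2 to 4, against 14, 3 and 7 in cell replicates 2 to 4. The X-element had 122, 0, 0 and 236 FPKM in exosome RNA, against 23.2, 1139, 0 and 816 in cells, which overlapped. The G-element was listed at 1.83, 0, 0 and 0 in exosome RNA, against 21.6, 0, 0 and 2682 in cells, the last from 3 fragments. G6 had 10.9, 0, 0 and 0 in exosome RNA, against 1.13, 460.2, 7638 and 0 in cells, and its 7638 FPKM in cell replicate 3 was a single fragment. G2, with 1 and 3 fragments in exosome replicates 3 and 4 and 3 in cell replicate 2, had the highest log2 difference of the tested members, and G3, G4 and G5 had at most 2 fragments in any of the 6 libraries.

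Juan was among the 5 most abundant members per length in replicates 1 and 2 of both sources, but not in replicates 3 and 4. Juan is a member of the jockey clade. It had 1782, 5256, 371 and 264 FPKM in exosome replicates 1 to 4, against 31973, 3626, 0 and 919 in the cell replicates, and it ranked first among the 34 in exosome replicate 2 and cell replicate 2. The groups overlapped, with exosome replicate 2 above 3 of the 4 cell libraries. BS and BS3 were seen in cell replicates 1 and 2 at 349 to 1062 FPKM and at 0 to 72.2 in exosomes, and Helena only in cell replicate 1, at 108 FPKM.

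The I-element, whose movement causes a form of hybrid dysgenesis in fly crosses, was listed at 7.80, 0, 0 and 0 FPKM in exosome RNA, against 0.0334, 501, 0 and 716 in cells. Its fragments numbered 3 and 1 in cell replicates 2 and 4 and 0 in exosome replicates 2 to 4, and the groups overlapped. Cr1a, of the CR1 clade, was seen in 7 libraries with 83.8, 1242, 702 and 83.4 FPKM in exosome RNA, against 1.73, 1816, 0 and 1736 in cells. Ivk and baggins had at most 1 fragment in any of the 6 libraries.

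In the 6 libraries with fragment counts, the elements that insert into ribosomal RNA genes were led by R1A1-element. It had 126, 2059.9, 2332 and 416 FPKM in exosome replicates 1 to 4, against 9005, 2512, 10907 and 5029 in the cell replicates, and every exosome value was below every cell value. Its fragments were 2, 8 and 6 in exosome replicates 2 to 4, against 15, 4 and 7 in cell replicates 2 to 4. The gap between its highest exosome and lowest cell value was small. These values were 8 fragments in exosome replicate 3 and 15 in cell replicate 2. R2-element had 134, 0, 0 and 208 FPKM in exosome RNA, against 27239.6, 2017, 0 and 3267 in cells. Cell replicate 1 was again the highest, and cell replicate 3 was at 0 with the exosome replicates 2 and 3. R1-2 had a single fragment, in cell replicate 2. Of the related Rt1 elements, Rt1b was at 0 to 604 FPKM in exosome RNA, against 0 to 2236 in cells, Rt1a was at 0 to 306 and 0 to 6738, the last in cell replicate 1, and Rt1c had 1 fragment, in exosome replicate 2. R1 and R2 together held 1.05%, 1.22% and 0.290% of transposon fragments in exosome replicates 2 to 4, against 2.09%, 5.26% and 3.62% in cells. Among fragments other than copia the shares were 1.71%, 4.17% and 2.89% against 2.69%, 5.97% and 3.79%, which overlapped.

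No member passed the test across the table. Elements above 1 FPKM in at least 4 libraries, 84 in all and 21 of the members, were tested with limma on log2(FPKM + 1), with Benjamini-Hochberg adjustment over all 84. The 13 members not tested included TART-A, the I-element and the G-element. Of the 21 members 0 were called in either direction, and 0 had an unadjusted p under 0.05. The unadjusted limma count depended on the libraries. Without exosome replicate 2, 3 of 21 members were lower (R1A1-element, Doc and F-element), and 4 of all 84 elements. Without cell replicate 3, 3 of 20 members were lower (HeT-A, Doc3-element and R2-element), and 17 of all 83 elements. Without both libraries numbered 1, 2 of 12 members were lower (Doc and F-element), and 2 of all 51 elements. In each of these fits 1 element, not a member, was higher. Over all 84 tested elements 1.19% were called higher in exosome RNA and 0.0% lower. With no adjustment, 1 element (1.19%) was higher and 1 (1.19%) lower at p under 0.05. The called element was copia, listed at 6.8e-05 in cell replicate 1, and 0 elements were called without that library or without both libraries numbered 1. The difference in log2(FPKM + 1), exosome minus cell, was below 0 for 17 of the 21 members, against 76.2% of all tested elements. The median difference was -2.01 for the members and -1.82 for all tested elements. Leaving out a cell library moved these medians apart, to -2.81 and -1.78 for replicate 1, -2.69 and -1.26 for replicate 2 and -2.32 and -1.21 for replicate 4, while leaving out replicate 3 gave -2.86 and -2.61. Without exosome replicate 1, 3 or 4 the medians were -2.86 and -2.18, -2.63 and -1.70, and -2.44 and -1.87. Without exosome replicate 2 the order turned, with -1.16 for the members and -1.24 for all tested elements. With equal sums per library the medians were -1.11 and -0.18. With quantile normalization the 2 medians were 0.45 and 0.13, and 9 of 21 members were below 0.

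**Figure D5:**
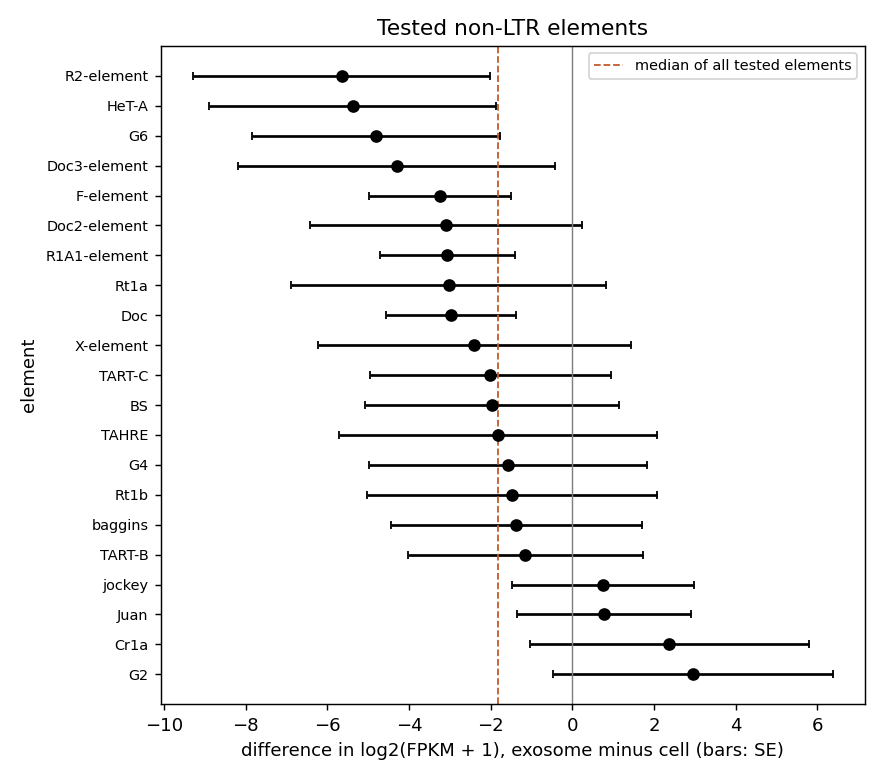
Difference in log2(FPKM + 1), exosome minus cell, for the 21 tested elements (points) with standard errors from limma (bars) and the median of all tested elements (dashed). The points run from -5.65 for R2-element to 2.95 for G2, and none passed the test.

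F-element, Doc and R1A1-element were the 3 tested members whose groups did not overlap, all lower in exosomes. This was 14.3% of the 21, where 5.95% of all tested elements did so, which is 5 of 84. No tested element had every exosome library above every cell library. The differences in log2(FPKM + 1) were -3.24 (SE 1.74) for F-element, -2.98 (SE 1.59) for Doc and -3.06 (SE 1.65) for R1A1-element, with a limma adjusted p of 0.822 for each. For each a two-sided exact permutation test gave p = 0.0286, the lowest possible with 4 libraries in each group, and 0.48 when adjusted over all 84 elements. Groups that do not overlap always give this lowest p, so it restates how the 3 were picked and is no further test. With both libraries numbered 1 left out the differences were -3.19, -2.84 and -2.03, with limma adjusted p of 0.693, 0.701 and 0.738. As shares of transposon fragments in the 6 libraries, the groups of 6 members did not overlap, these 3 and Doc2-element, TART-B and TART-C, of 31 with a fragment, where the same held for 11.7% of the 111 elements with a fragment. Doc2-element, TART-B and TART-C each had only 1 fragment in cell replicate 3, and Doc2-element only 1 in cell replicate 4, so their lack of overlap rests on single fragments. In the opposite direction the groups were apart for 0 members and for 0.901% of the 111 elements. The mean share was lower in exosomes for 28 of the 31 members and for 90.1% of all elements with a fragment. As shares of fragments other than copia the groups of all 31 members overlapped, while 0.909% of the 110 elements were lower throughout and 0.909% higher. On that scale the mean was lower in exosomes for 21 of the 31 members and for 58.2% of all elements.

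The largest differences, those of R2-element (-5.65, SE 3.64) and HeT-A (-5.37, SE 3.52), belonged to elements at 0 in exosome replicates 2 and 3 and in cell replicate 3, and highest in cell replicate 1. With both libraries numbered 1 left out, neither passed the filter for testing. Neither passed limma's test (adjusted p = 0.822 for both). Without cell replicate 3, in which both were at 0, the limma adjusted p was 0.0514 for HeT-A and 0.0538 for R2-element. With cell replicate 3 and exosome replicate 2 left out, the 2 libraries with the fewest fragments and chosen with the data in view, both were called lower in exosomes (limma adjusted p = 0.00302 for each). That fit keeps both libraries numbered 1, whose scale differs from the others. For TART-B (-1.15, SE 2.88), TART-C (-2.01, SE 2.95), TAHRE (-1.82, SE 3.89), jockey (0.76, SE 2.22) and Juan (0.78, SE 2.13) the limma adjusted p ran from 0.835 to 0.857, and each turned direction under some other scaling, pseudocount or choice of libraries. With both libraries numbered 1 left out the differences were -5.12 for TART-B, -5.42 for TART-C, -1.84 for TAHRE, 1.93 for jockey and 2.43 for Juan, with limma adjusted p from 0.738 to 0.888.

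Genes of the host that act on these elements were also measured, in the gene table. Of 18 genes of the telomere cap and of telomere chromatin 17 were matched and 12 tested, and 0 were called by limma, with 0 at an unadjusted p under 0.05. Their median log2 difference was -0.54 and 8 of 12 were below 0. Of 9 genes of the siRNA pathway and its partners 8 were tested and 0 were called, with 0 at an unadjusted p under 0.05, a median of -0.91 and 7 of 8 below 0. Over all 5868 tested genes 0.0% were called in either direction, 5 (0.0852%) were higher and 271 (4.62%) lower at an unadjusted p under 0.05, the median was -1.01 and 85.7% were below 0. The gene CG8409, which encodes the heterochromatin protein HP1a that also caps telomeres, had 128, 57.3, 24.4 and 103 FPKM in exosome RNA, against 116, 242, 32.6 and 14.9 in cells, which overlapped. The ubiquitin-conjugating enzyme gene eff had 0, 27.9, 44.6 and 126 FPKM in exosome RNA, against 166, 201, 55.0 and 13.1 in cells. The gene ver, of the cap complex that binds single-stranded ends, had 57.3, 0, 2.26 and 17.1 in exosome RNA, against 49.5, 25.8, 0 and 2.33 in cells. AGO2, the Argonaute that carries siRNAs, had 12.4, 0, 12.8 and 14.9 FPKM in exosome RNA, against 126, 68.8, 53.0 and 4.97 in cells, and only cell replicate 4 lay inside the exosome range. The AGO2 partner vig had 27.3, 0, 16.1 and 25.4 FPKM in exosome RNA, against 98.6, 92.3, 26.7 and 6.97 in cells. The gene blanks, for an RNA-binding protein, had 272, 116, 18.1 and 138 in exosome RNA, against 156, 274, 22.4 and 10.4 in cells, and its groups overlapped.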

How the data were processed

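Transcripts per gene and transposable elements were measured in 4 exosome and 4 cell libraries. Both deposited tables hold FPKM made by the authors, taken as such because the values are not whole and Cufflinks, named in the submitters' processing notes with TopHat2 and the build dm3, writes this unit. The library kit keeps the strand. The roles of these tools, their versions, the use of strand in counting and the handling of reads that match several elements are not given in the sources used here. An added column of the transposon table holds element lengths.

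Fragments were recovered where 1/FPKM of the elements with the lowest values was linear in length, and values were then whole within 0.01. The elements and genes tested were those above 1 FPKM in at least 4 libraries, on log2(FPKM + 1), with limma 3.58.1 in R 4.3.3 with a trend and a threshold of 0.05. Each table was fitted whole. A pseudocount of 1 is small beside the value of 1 fragment, so differences mostly reflect whether an element was listed at 0. Transcripts were summed to 14012 genes, of which 13623 were matched to a symbol of the Release 6 annotation. Intervals are exact binomial at 95%.

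The members, lists and alternatives were chosen with earlier results of these data known. Named elements are the telomeric ones, 9 textbook representatives, called members, the 10 with the highest mean and those whose groups do not overlap, and the 3 most abundant genes of each host list. Other members are named from small counts, chosen after their values were seen. No sequences are printed.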

Additional observations from a re-analysis of the deposited data

Results flagged for a closer look

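Within a group of 4 libraries, a single value far from the other 3 was looked for in each named element and each summed share, and chance alone marks about 1 group in 20. Groups with 3 values at or near 0 are marked whenever the fourth is higher, so most of these rest on a few fragments or on a library numbered 1.

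Cell replicate 1 was far above the other cell libraries for HeT-A (159813 FPKM), Juan (31973 FPKM) and R2-element (27239.6 FPKM). Other cell values that stood apart were TART-A in cell replicate 2 (131 FPKM, 2 fragments), the G-element in cell replicate 4 (2682 FPKM, 3 fragments) and G6 in cell replicate 3 (7638 FPKM, 1 fragment). Exosome replicate 1 was the only exosome library above 0 for TART-A (24.9 FPKM), the I-element (7.80 FPKM), the G-element (1.83 FPKM) and G6 (10.9 FPKM). Its telomeric share of the summed FPKM, 5.11%, stood apart from 0.273%, 0.296% and 0.485% in exosome replicates 2 to 4. In all these cases the part played by the other scale of the libraries numbered 1, or by depth, was not tested.

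Outside the members, Dyak\TART was listed at 2693 FPKM in cell replicate 4, from 6 fragments. This was above the floor of 3 fragments set here for a count of 0.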

How the results depend on the processing

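No member was called in any of 17 of the 18 other fits, and 2 were with cell replicate 3 and exosome replicate 2 left out, added after the data were seen, where these 2 (HeT-A and R2-element) were the elements called and copia was not. The call of copia, the 1 element called in the table, was lost (0 called) with no filter, with equal sums per library, with quantile normalization and with both libraries numbered 1 left out; with each library left out in turn 0 to 1 were called, 0 without cell replicate 1. The host genes had 0 calls in each of the 17 other fits run on the gene table. With both libraries numbered 1 left out, 12 members were tested and 9 were below 0. Their median difference was -1.94, against -1.49 for all 51 tested elements. The non-LTR, telomeric and R1 and R2 shares of summed FPKM then differed by -17.2, -2.78 and -3.29 percentage points. Leaving out each library in turn, the members' median difference ran from -2.86 to -1.16, the non-LTR share of summed FPKM (exosome minus cell, -10.4 percentage points) from -15.6 to -7.35, the telomeric share (-1.07) from -2.26 to -0.282 and the R1 and R2 share (-2.45) from -3.43 to -1.71. Without elements of other species in the total, these 3 differences were -23.6, -8.96 and -4.26. The telomeric difference was -7.59 with copia left out as well and -5.06 in fragments. With copia alone left out of the total, the 3 differences over all 8 libraries were -2.03, 0.29 and -1.05, the telomeric one turning direction. In fragments other than copia, counted without the libraries numbered 1, the 3 were -6.64, -2.46 and -1.23, and none turned. The labels do not say that replicate numbers pair the libraries, and not every same-numbered pair correlated above 0.1 (r of deviations 0.14, -0.13, 0.037 and 0.024 across elements, 0.23, 0.19, 0.45 and -0.068 across genes), so pairing was not assumed. Across genes, exosome replicates 1 to 3 each correlated most with the cell library of the same number. Exosome replicate 4 did so with cell replicate 2 (0.41). Across elements only exosome replicate 1 correlated most with the cell library of its own number. With the replicate number as a block 0 members and 1 element were called, and the median was -2.01. In that fit 1 of 21 members (Doc) had an unadjusted limma p under 0.05, where 2 of all 84 elements were lower and 1 higher. With no filter 3 of 32 members had one, where 6 of all 161 elements were lower and 0 higher.

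Directions turned as follows, none of them called. With quantile normalization TART-B was at 0.58, TART-C at 0.22, TAHRE at 0.45 and X-element at 0.58. With equal sums over D. melanogaster elements other than copia TART-B was at 0.19 and TAHRE at 0.060. With pseudocount 10 jockey was at -0.056 and Juan at -0.032. Without exosome replicate 3 TART-B was at 1.29, and without exosome replicate 2 TART-C was at 0.24 and Juan at -0.03. Without cell replicate 3 jockey was at -2.22 and Juan at -2.27. Leaving out each library in turn, TART-B ran from -3.78 to 1.29, TART-C from -4.25 to 0.24, jockey from -2.22 to 2.03 and Juan from -2.27 to 2.71. With cell replicate 3 and exosome replicate 2 left out, TART-C was at 0.76, jockey at -2.89 and Juan at -3.08. The cause was not tested. Depth limits all single elements, most of which rest on under 10 fragments a library.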
